A study of Homo sapiens with 6 samples.

Results

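Senescent cells are recognised partly by their nucleus, and the 9 genes described here encode proteins used to recognise it: the lamins LMNA, LMNB1 and LMNB2, the high-mobility-group (HMG) chromatin proteins HMGB1, HMGB2, HMGB3, HMGA1 and HMGA2, and the lysosomal enzyme GLB1. They were picked by gene symbol from 26704 genes measured in SKM-1, an established human cell line of acute myeloid leukaemia that followed a myelodysplastic syndrome. The choice used no rule on their values, though earlier results of these data were known when it was made. All 9 were found in each of the 3 deposited tables and were above the minimum mean value of 10 used for testing. Poly-A RNA had been sequenced from 1 library of cells given VEM (vemurafenib, a RAF kinase inhibitor), 1 library given VEM+BOR, 2 libraries given BOR alone and 2 untreated libraries. The labels do not spell out BOR, and dose and exposure time are not stated in the sources used here. Every library comes from the same line, and nothing says that the libraries of a group were separate cultures, so p-values measure only how far these libraries differ, which may be technical variation. The series asks whether vemurafenib brings SKM-1 cells into senescence.

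Lamins form the meshwork under the inner nuclear membrane that holds chromatin at the nuclear edge. LMNB1 and LMNB2 encode the B-type lamins, which stay anchored in the membrane, and LMNA encodes lamins A and C, which rise with tissue stiffness and with differentiation and are scarce in many blood progenitors. Loss of LMNB1 transcript and protein is a widely used sign of senescence. HMGB proteins bend DNA and are abundant in dividing cells. In senescence HMGB1 leaves the nucleus and is secreted as an alarm signal, and HMGB2 declines as the cell cycle stops. HMGA1 and HMGA2 bind AT-rich DNA and have been found in senescence-associated heterochromatin foci of fibroblasts, while both are also oncofetal genes of growing tumours. GLB1 encodes the lysosomal beta-galactosidase whose activity is read by the classic senescence stain.

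Library depth was even, at 17252404 to 18507606 reads assigned to genes. The second BOR library stood apart from the other 5. Across genes, its log2 difference from the untreated mean had an SD of 1.46, against 0.385 for the first BOR library, 0.503 for VEM and 0.532 for VEM+BOR. Its across-gene correlation with the other libraries was 0.861 to 0.880. Its label was taken as given, and whether that label is right was not tested, so every BOR value carries this limit. Of 6 defining myeloid genes, CD68 was not found in all tables. The others, CD33, ANPEP, MPO, ELANE and SPI1, were read in every library. Their summed normalised count was 23491 in VEM, 21648 in VEM+BOR, 48375 and 86618 in the BOR libraries, and 44771 and 57129 in the untreated libraries, a spread carried by the granule genes MPO and ELANE. Of 12 markers of lymphoid, erythroid, epithelial, fibroblast and endothelial cells, 5 were found in all tables, with sums of 90.2 to 304 per library. Whether the composition of the cultures had a part in any result below was not tested. In bulk RNA, fewer cells of a type and less RNA per cell cannot be told apart.

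Promoter stretches of 4 of the genes are shown because the values below set them in pairs: HMGB1 and HMGB3 had the widest gaps between the untreated libraries, and LMNB2 and HMGA1 had similar high values in the second BOR library. RefSeq promoter sequences (GRCh38.p14) were matched for 7 of the 9 genes, all but HMGB2 and HMGA2. Each stretch lies within the 250 bases before an annotated start, with annotated exons removed, and is written 5′ to 3′ on the gene's own strand. RefSeq gives 3 starts for HMGB1, 2 for HMGB3, 2 for HMGA1 and 1 for LMNB2, and the start with the most annotated protein-coding transcript starts nearby was used. Capitals mark a CCAAT box, searched as CCAAT on both strands. The places are chr13:30465966-30466116 on the minus strand for HMGB1, chrX:150983085-150983285 on the plus strand for HMGB3, chr19:2456997-2457209 on the minus strand for LMNB2 and chr6:34236623-34236872 on the plus strand for HMGA1.
HMGB1: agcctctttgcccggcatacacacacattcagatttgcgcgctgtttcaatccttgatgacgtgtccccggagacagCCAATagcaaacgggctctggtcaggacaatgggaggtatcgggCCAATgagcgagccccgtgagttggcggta
HMGB3: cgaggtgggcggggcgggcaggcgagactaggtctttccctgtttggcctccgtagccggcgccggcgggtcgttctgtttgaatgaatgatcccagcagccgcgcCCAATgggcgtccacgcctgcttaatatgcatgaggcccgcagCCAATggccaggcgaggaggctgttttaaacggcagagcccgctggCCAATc
LMNB2: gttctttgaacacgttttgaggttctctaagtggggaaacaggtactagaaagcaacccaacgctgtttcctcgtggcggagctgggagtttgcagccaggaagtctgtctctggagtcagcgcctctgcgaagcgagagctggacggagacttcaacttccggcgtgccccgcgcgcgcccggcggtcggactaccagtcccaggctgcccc
HMGA1: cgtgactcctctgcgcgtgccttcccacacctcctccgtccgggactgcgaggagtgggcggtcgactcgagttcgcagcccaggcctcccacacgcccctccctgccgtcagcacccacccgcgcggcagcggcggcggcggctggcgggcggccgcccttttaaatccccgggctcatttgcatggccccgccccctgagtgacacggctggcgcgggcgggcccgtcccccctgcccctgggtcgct
The HMGB1 stretch holds 2 CCAAT boxes, at 98 and 54 bases before the start. Another, at 23 bases, lay in the exon bases removed. The HMGB3 stretch holds 3, at 139, 96 and 50 bases before the start. The stretches of LMNB2 and HMGA1 hold none. LMNA and GLB1, not shown here, stood further above the untreated mean in the second BOR library. The LMNA stretch holds 1, at 141 bases before the start, and the GLB1 stretch holds none. Any link between the boxes and the values was not tested. Such counts depend on the start used. The stretch at the other HMGA1 start holds 1, at 141 bases before it. Those at the other HMGB1 starts hold 1 and, in a stretch of 95 bases, 0. Those at the other HMGB3 and LMNA starts hold 0. Over 35116 RefSeq promoters, 32.0% hold at least 1 match in the full 250 bases, so its presence in a window is common. The stretches shown have 151 bases for HMGB1, 201 for HMGB3, 213 for LMNB2 and 250 for HMGA1, so that share is not matched to their length. CHR elements (TTTGAA or TTCGAA), E2F sites and TATA boxes were also searched and are not marked. Among the genes shown, LMNB2 held 1 CHR element, 240 bases before the start, and HMGB3 held 1, at 166. These do not follow the pairs. No E2F site or TATA box was found in the genes shown. Over all promoters 14.3% hold a CHR element.

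Levels can be set side by side between genes only per unit of length, as RPKM, that is, reads per kilobase of gene model scaled to the library total. On that scale HMGA1 was the highest of the 9 in untreated cells, at 389 ± 24.5 (SD, n = 2 for each value in this paragraph). HMGB2 followed at 218 ± 3.79. LMNB1 stood at 88.4 ± 3.68 and HMGB1 at 75.4 ± 18.3, and these neighbours did not differ beyond their spread, since HMGB1 was 62.5 in one untreated library and 88.3 in the other. Among the lamins LMNB1 came first, followed by LMNB2 at 51.7 ± 4.32 and LMNA at 44.8 ± 6.28. LMNB2 and LMNA also overlapped, with 48.7 and 54.8 for LMNB2 and 49.2 and 40.3 for LMNA. GLB1 at 27.9 ± 5.31 and HMGB3 at 26.0 ± 5.38 overlapped too, and HMGA2 was the lowest at 1.24 ± 0.0918. HMGA1 thus far exceeded HMGA2 in every library. The ratio of the 2 RPKM values was 288 in VEM, 269 in VEM+BOR, 317 and 633 in BOR, and 317 and 312 in untreated cells. Its size depends on the gene models used, of 2327 bases for HMGA1 and 15403 for HMGA2. By reads without regard to length the gap was smaller, at 15042 for HMGA1 and 314 for HMGA2 in the first untreated library.

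Values of single genes in the next paragraphs are normalised read counts, that is, reads divided by 1 size factor per library, with all 6 libraries brought to 1 scale. LMNB1, the lamin whose loss marks senescence, was not below both untreated libraries in any treated library on this scale, though scaling to library totals turned the second BOR library low, as given below. It was 5806 in VEM, 6254 in VEM+BOR, 5504 and 5563 in BOR, and 5099 and 5512 in untreated cells. VEM and VEM+BOR thus lay above both untreated libraries, at 1.09 and 1.18 times the untreated mean, and BOR overlapped with untreated. LMNB1 lies on chromosome 5 from 126776623 to 126837020 (ENSG00000113368, plus strand).

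LMNB2, the second B-type lamin, was 4743 in VEM, 5473 in VEM+BOR, 5258 and 9398 in BOR, and 4077 and 5262 in untreated cells. The second BOR library was high, at 2.01 times the untreated mean, VEM+BOR was just above both untreated libraries and VEM lay between them. With reads scaled to library totals instead, VEM and the first BOR library were also above both. LMNB2 (ENSG00000176619, chromosome 19, 2427638 to 2456996) shares 257 exon bases with TIMM13 on the same strand, 4.73% of its exon length, so some reads cannot be assigned to one of them.

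LMNA, the A-type lamin gene, had the most divided values of the 9. It was 3734 in VEM, 3384 in VEM+BOR, 4143 and 14526 in BOR, and 5299 and 4979.7 in untreated cells. VEM, VEM+BOR and the first BOR library were all below both untreated libraries, at 0.727, 0.659 and 0.806 times the untreated mean. The second BOR library was the only high one, at 2.83 times that mean, so the BOR pair differed 3.51-fold within itself. LMNA lies on chromosome 1 from 156082573 to 156140089 (ENSG00000160789, plus strand), and the counts do not separate lamin A from lamin C transcripts.

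**Figure D1:**
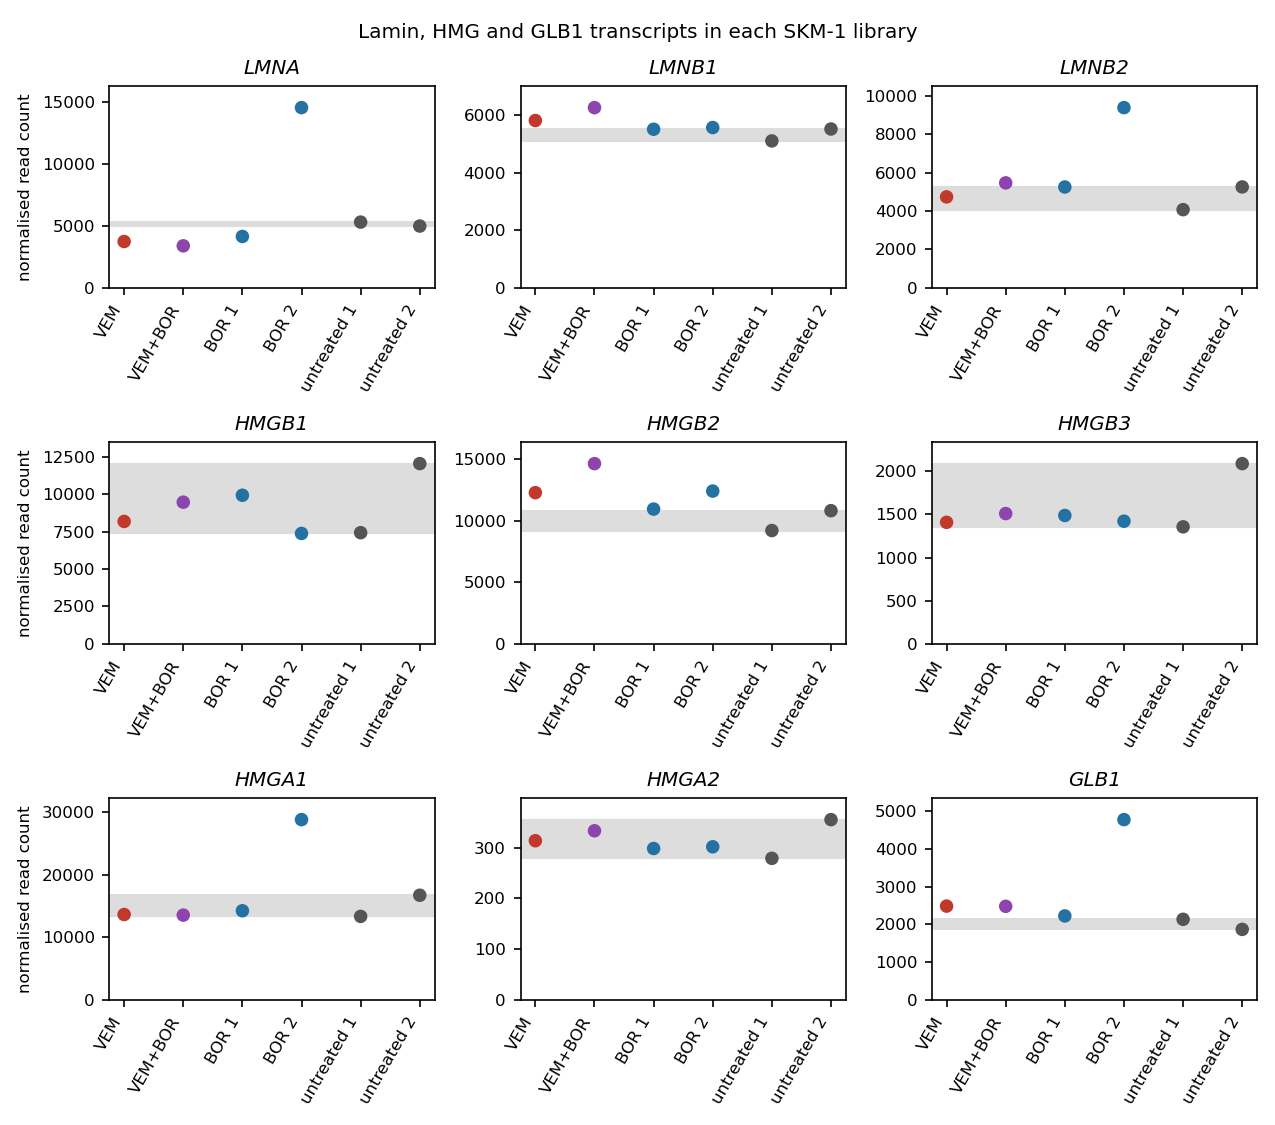
Normalised read counts (vertical axes, starting at 0) of the 9 genes in each of the 6 libraries (horizontal axes), 1 point per library, with a grey band spanning the 2 untreated libraries. LMNA lies under the band in VEM, VEM+BOR and the first BOR library, and LMNA, LMNB2, HMGA1 and GLB1 are high in the second BOR library, with 14526 for LMNA.

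HMGB1, the DNA-bending alarm protein, was 8192 in VEM, 9482 in VEM+BOR, 9945 and 7388 in BOR, and 7439 and 12062 in untreated cells. The treated values lay within the span of the untreated pair, except the second BOR library, which was 7388 against the lower untreated 7439. The untreated libraries themselves differed 1.62-fold, the widest gap of the 9 genes in that pair. HMGB1 (ENSG00000189403, chromosome 13, 30456704 to 30617597) has 8 pseudogenes in the tables that could take its reads. Their summed reads equalled 27.3% to 34.0% of those of HMGB1 by library, mostly HMGB1P5 and HMGB1P6, so its level is uncertain. With the pseudogenes added, HMGB1 was 10512 in VEM, 12274 in VEM+BOR, 13018 and 9898 in BOR, and 9725 and 15353 in untreated cells. The second BOR library then lay above the lower untreated one instead of below it.

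HMGB2, its close relative in dividing cells, was 12297 in VEM, 14658 in VEM+BOR, 10960.3 and 12425 in BOR, and 9216 and 10831 in untreated cells. Every treated library was above both untreated libraries, at 1.23, 1.46, 1.09 and 1.24 times the untreated mean. For the second BOR library this depended on the scaling, as given below. HMGB2 lies on chromosome 4 from 173331695 to 173335125 (ENSG00000164104, minus strand).

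HMGB3, a family member known in mouse from blood stem and progenitor cells, was 1408 in VEM, 1509 in VEM+BOR, 1487 and 1421 in BOR, and 1355 and 2088 in untreated cells. By size factors all 4 treated libraries lay between the untreated ones, close to the lower. By totals the second BOR library was below both, at a log2 value of -0.84 from the untreated mean. Like HMGB1 it was higher in the second untreated library than in the first, by 1.54-fold. HMGB3 lies on chromosome X from 150980509 to 150990775 (ENSG00000029993, plus strand).

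HMGA1, the most abundant of the 9 per kilobase, was 13655 in VEM, 13556 in VEM+BOR, 14255 and 28838 in BOR, and 13353 and 16735 in untreated cells. VEM, VEM+BOR and the first BOR library were within the untreated span, and the second BOR library stood at 1.92 times the untreated mean. By totals VEM (a log2 value of -0.076) and VEM+BOR (-0.17) were below the lower untreated library (-0.064). HMGA2 was 313 in VEM, 333 in VEM+BOR, 298 and 301 in BOR, and 279 and 355 in untreated cells. By size factors all treated values of HMGA2 were inside the untreated span, and by totals the second BOR library was below it, at a log2 value of -0.66. HMGA1 (ENSG00000137309) spans 34236873 to 34246231 on chromosome 6. HMGA2 (ENSG00000149948) spans 65824131 to 65966295 on chromosome 12 and shares 384 exon bases with an antisense gene that had at most 4.06 normalised counts in any library.

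GLB1, the beta-galactosidase gene, was 2482 in VEM, 2477 in VEM+BOR, 2223 and 4773 in BOR, and 2133 and 1866 in untreated cells. Every treated library was above both untreated libraries on this scale. With totals in place of size factors, the first BOR library (a log2 value of 0.17 over the untreated mean) was below the first untreated library (0.20). The second BOR library was highest, at 2.39 times the untreated mean, against 1.24 in VEM, 1.24 in VEM+BOR and 1.11 in the first BOR library. GLB1 (ENSG00000170266) spans 32996608 to 33097230 on chromosome 3, minus strand, and shares 83 exon bases with TMPPE on the same strand and 320 with the pseudogene SEC13P1 on the opposite strand.

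VEM was set against untreated cells to ask whether the marker transcripts differ in cells given VEM. LMNB1 was no lower in VEM, GLB1 and HMGB2 were somewhat higher, and LMNA was lower, but 0 of the 9 genes passed the test, where 0.0446% of the 15689 genes tested did. LMNA had the change farthest from 0, with a log2 change of -0.47 (SE 0.40, 95% interval -1.30 to 0.37) and an adjusted p of 1 in limma with Benjamini-Hochberg adjustment. Of all genes tested, 11.1% had a lower change. GLB1 had a log2 change of 0.31 (95% interval -0.47 to 1.08) and HMGB2 of 0.29 (95% interval -0.69 to 1.28). For LMNB1 the log2 change was 0.12 (95% interval -0.73 to 0.98), which as a fold is 1.09 with limits of 0.601 and 1.98. The other 5 genes had log2 changes between -0.26 for HMGB3 and 0.03 for LMNB2. VEM was above both untreated libraries for 3 of the 9 genes (LMNB1, HMGB2 and GLB1), where 30.3% of all genes were, and below both for 1 (LMNA), where 27.6% were. By totals 4 were above (LMNB2 joining), where 33.7% of genes were, and 2 below (HMGA1 joining). The share of all genes below both by totals was somewhat under the 27.6% found by size factors. The 2 of the 9 below did not exceed that share. The single VEM library was assumed to vary like the untreated pair. In the authors' deposited table, with p-values of their own, 16 of 24633 genes had an adjusted p under 0.05 and none of the 9 was among them.

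VEM+BOR was compared with the same untreated libraries, so its values are not independent of those for VEM. LMNA was again the lowest of the 9 and HMGB2 the highest, and 0 of the 9 passed, where 0.192% of 15606 genes did. The log2 change of LMNA was -0.62 (SE 0.40, 95% interval -1.44 to 0.21, limma adjusted p = 1), and 8.46% of genes had a lower one. The log2 change of HMGB2 was 0.54 (SE 0.48, 95% interval -0.46 to 1.53, limma adjusted p = 1), and 9.35% of genes had a higher one. GLB1 had a log2 change of 0.30, LMNB1 of 0.23 and LMNB2 of 0.23. HMGB1 had a log2 change of -0.01, with a 95% interval whose upper end was 0.98. VEM+BOR exceeded both untreated libraries for 4 of the 9 (LMNB1, LMNB2, HMGB2 and GLB1), where 30.1% of genes did, and was below both for LMNA alone, where 27.9% of genes were. By totals the same 4 were above, and HMGA1 joined LMNA below, where 28.4% and 29.8% of genes were.

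**Figure D2:**
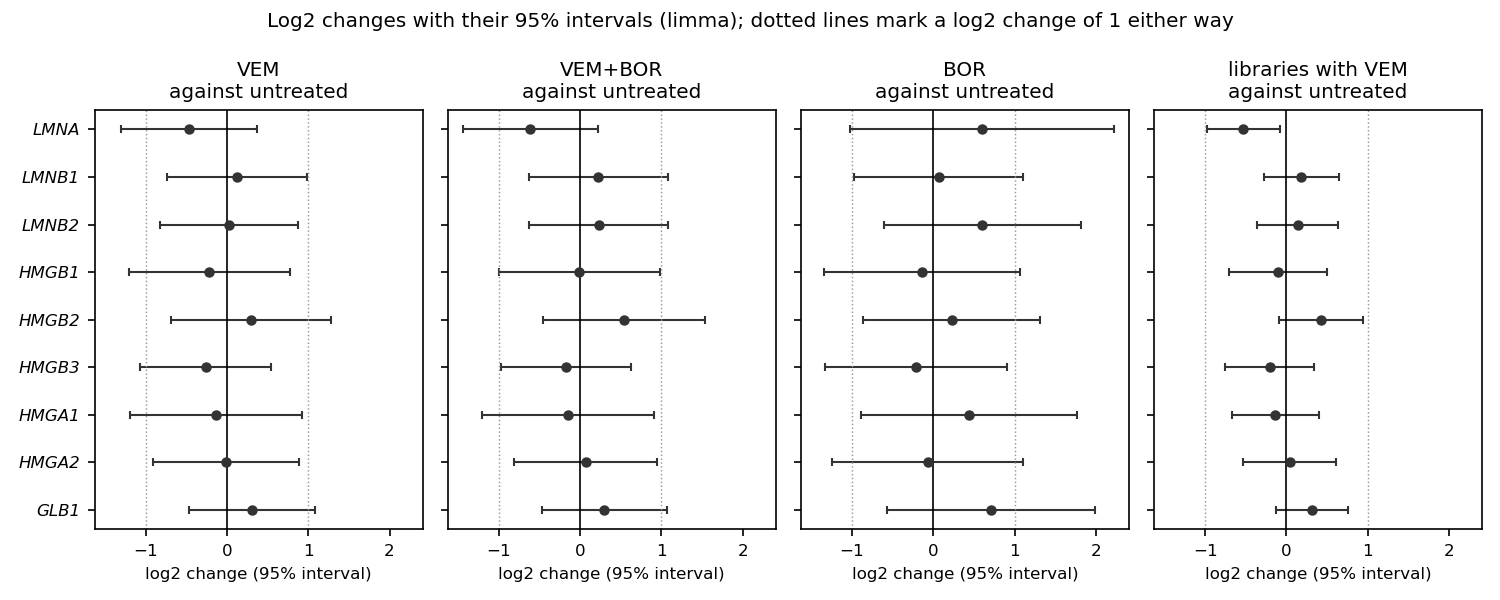
Log2 changes (horizontal axes) of the 9 genes in the 4 comparisons with untreated cells, as points with 95% intervals from limma, with dotted lines at a log2 change of 1 either way. All intervals cross 0 except that of LMNA when both libraries with VEM form 1 group, at -0.98 to -0.08, which did not pass after adjustment.

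The 2 libraries that received VEM, alone or with BOR, were compared as 1 group with the 2 untreated ones on 1 scale. Their spread includes any effect of BOR. LMNA had a log2 change of -0.53 (SE 0.20, 95% interval -0.98 to -0.08), with an unadjusted p of 0.0251 and an adjusted p of 0.635 in limma, and it was lower in 2 of 2 libraries. It was the only 1 of the 9 with an unadjusted p under 0.05, where 6.25% of the 15477 genes had one. After adjustment 0 of the 9 passed, where 0.220% of genes did. HMGB2 had a log2 change of 0.43 (95% interval -0.10 to 0.95, limma adjusted p = 0.910) and GLB1 of 0.31 (95% interval -0.13 to 0.76, limma adjusted p = 0.937). The 95% interval of LMNB1, around a log2 change of 0.19, was -0.27 to 0.64, or 0.828-fold to 1.56-fold. Both libraries with VEM were above both untreated ones for 3 of the 9 genes, where 19.4% of genes were, and below for 1, where 14.4% were. By totals these counts were 4 and 2, where 19.0% and 15.2% of genes were.

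BOR was compared with untreated cells over 2 libraries each, and the result is one of disagreement between the BOR libraries. Passing genes numbered 0 of the 9 and 0 of all 15382, a share of 0%, while 38 genes (0.247%) and 0 of the 9 had an unadjusted p under 0.05. edgeR on the recovered reads called 0 genes and DESeq2 called 35, none of the 9 among them. GLB1 had a log2 change of 0.71 (95% interval -0.57 to 1.99, limma adjusted p = 0.968), LMNB2 of 0.60 (95% interval -0.61 to 1.82) and LMNA of 0.60 (95% interval -1.03 to 2.22). HMGA1 had a log2 change of 0.44 and HMGB1 of -0.14. Both BOR libraries were above both untreated ones for 2 of the 9 (HMGB2 and GLB1), where 11.7% of genes were, and below both for 0, where 8.24% were. By totals 1 of the 9 was above (LMNB2) and 0 were below, where 6.68% and 13.0% of genes were, so neither HMGB2 nor GLB1 kept that place.

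The values for BOR rest on which library is used. With the first BOR library alone, the log2 change was -0.31 for LMNA, where the pair gave 0.60. With the second alone it was 1.50 for LMNA (limma adjusted p = 0.0257) and 1.26 for GLB1 (limma adjusted p = 0.0286), both past the threshold, where 26.1% of 15371 genes also passed. Each of these fits assumes that the lone BOR library varies like the untreated pair, which alone gives the spread. In the second BOR library 6 of the 9 genes were above both untreated libraries, where 43.8% of genes were, and HMGB1 was below both, where 41.7% were. By totals 4 were above both and the other 5 below both, where 23.0% and 61.6% of genes were. Scaling by library total in place of size factors lowered every gene of the second BOR library by 0.60 on the log2 scale relative to untreated cells, and the other libraries by at most 0.10 in either direction. Under that scaling, in log2 units from the untreated mean, LMNA (0.90), GLB1 (0.66), LMNB2 (0.42) and HMGA1 (0.35) were still above both untreated libraries. LMNB1, at 0.07 by size factors, was at -0.53 by totals, and HMGB2, at 0.31 by size factors, was at -0.28. HMGB1 (-0.96), HMGB3 (-0.84) and HMGA2 (-0.66) were, like them, below both untreated libraries by totals. Mitochondrial genes took 3.14% of reads in the second BOR library, against 4.56% in the first BOR library and 5.40% and 5.26% in untreated cells, and their part in these values was not tested.

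The departure of VEM+BOR from the sum of the separate VEM and BOR changes was also fitted. It passed for 0 of the 9 genes. The departure farthest from 0 on the log2 scale was -0.74 for LMNA (95% interval -3.56 to 2.09, limma adjusted p = 1), followed by -0.71 for GLB1 (95% interval -2.94 to 1.52).

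Ratios between 2 of these genes within a library do not depend on library scaling. LMNB1 over LMNA, in reads per kilobase, was 2.99 in VEM, 3.55 in VEM+BOR, 2.55 and 0.736 in BOR, and 1.85 and 2.13 in untreated cells. VEM, VEM+BOR and the first BOR library were above both untreated libraries. Per kilobase, the second BOR library was the only one with more LMNA than LMNB1. By reads without regard to length, the first untreated library also had more LMNA (5970) than LMNB1 (5744). LMNB2 over LMNA gave the same order against untreated cells, at 1.63 in VEM, 2.08 in VEM+BOR, 1.63 and 0.832 in BOR, and 0.989 and 1.36 in untreated cells. Since LMNA is in both ratios, they are not separate evidence. HMGB2 over HMGB1 was 4.18 in VEM, 4.30 in VEM+BOR, 3.07 and 4.68 in BOR, and 3.45 and 2.50 in untreated cells, with the first BOR library inside the untreated span. GLB1 over LMNB1, which sets a transcript that senescence raises over one that it lowers, was 0.356 in VEM, 0.330 in VEM+BOR, 0.336 and 0.714 in BOR, and 0.348 and 0.282 in untreated cells. VEM was just above the untreated span, VEM+BOR and the first BOR library were inside it, and the second BOR library was high. These ratios were chosen among the genes described here and were not tested.

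**Figure D3:**
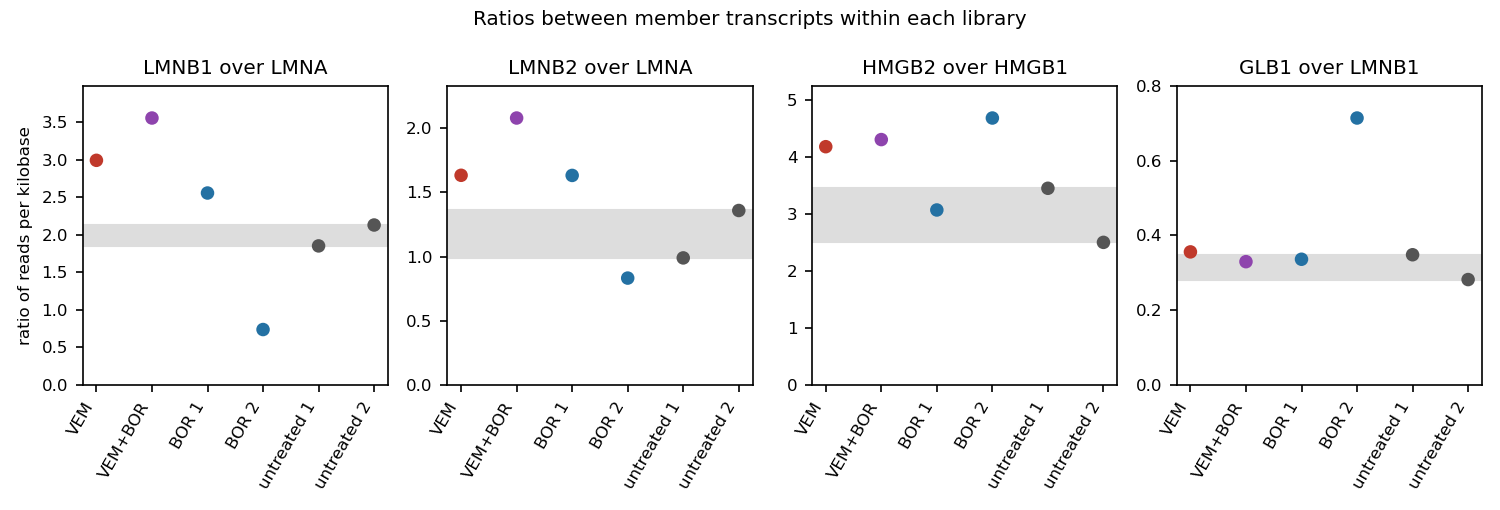
Ratios of reads per kilobase between genes (vertical axes, starting at 0) in each of the 6 libraries (horizontal axes), with a grey band over the span of the 2 untreated libraries. LMNB1 over LMNA is 2.99 in VEM and 3.55 in VEM+BOR, above the band, and 0.736 in the second BOR library, and GLB1 over LMNB1 leaves the band clearly only in the second BOR library, at 0.714.

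The genes with the most similar pattern were sought among 10489 protein-coding genes, by the root mean square difference of log2 values minus the untreated mean over the 6 libraries. For LMNB1 they were MARK3 (0.03), HPRT1 (0.03) and MIEF1 (0.06). For LMNA they were AVPI1 (0.10), CPNE1 (0.14) and GPRC5C (0.14), the loosest likeness of the 9. For GLB1 they were RAD54L2, CNNM2 and CNNM3, at 0.04 to 0.06. HMGA1 was closest to SUCLG1, ZC3HC1 and the replication gene MCM3. LMNB2 was closest to SUMO3, UBE2Q1 and OS9, HMGB2 to MAPK14, RANBP9 and TEX30, HMGB1 to SETD6, SERBP1 and ZNF576, HMGB3 to MAPK12, PPA1 and INTS12, and HMGA2 to BUB3, MNAT1 and ITFG1. Without the second BOR library, 1 of the 3 closest genes was shared for LMNB1 (MARK3) and for HMGA1 (SUCLG1) and 0 for the other 7.

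Genes around the lamins and HMG proteins were examined as lists. No list had a gene past the threshold in any comparison. Counts above and below both untreated libraries are given beside the share of all genes in that place. Of 19 tested lamina partners and lamin-processing genes, VEM exceeded both untreated libraries for 7 (30.3% over all genes) and was below both for 4 (27.6%), with a median log2 change of 0.07. Over all genes tested that median was 0.0022. In VEM+BOR 11 of 18 were above (30.1% over all genes) and 2 below (27.9%), with a median of 0.15 and of 0.01 over all genes. LBR, the receptor that ties B-type lamins and heterochromatin to the membrane, was 8178 in VEM, 9360 in VEM+BOR, 7889 and 2740.2 in BOR, and 6674 and 6095 in untreated cells. It was high in VEM, VEM+BOR and the first BOR library and low in the second. TMPO, encoding lamina-associated polypeptides, was likewise above untreated in those 3 libraries and below in the second BOR library, at 3334 in VEM, 3940.4 in VEM+BOR, 3388 and 1882 in BOR, and 2613 and 2913 in untreated cells. SYNE3, a nesprin of the nuclear envelope, was instead highest in the second BOR library, and FNTB, a farnesyltransferase subunit, had log2 changes of 0.17 in VEM and -0.49 in VEM+BOR, neither past the threshold.

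Among 13 other HMG-box and HMGN genes, VEM was above the untreated pair for 3 (30.3% over all genes) and below it for 2 (27.6%), and the median log2 change was -0.05. VEM+BOR was above for 5 (30.1%) and below for 3 (27.9%), and the median was 0.11. HMGN2, a nucleosome-binding HMG protein, had a log2 change of 0.02 in VEM and 0.47 in VEM+BOR. TFAM, the HMG-box factor of mitochondrial DNA, had 0.05 and 0.38, HMGXB4 had 0.39 and 0.43, and HMG20B had -0.08 and -0.39. Of 14 heterochromatin genes 0 were above and 6 below in VEM (median -0.06), where 30.3% and 27.6% of all genes were. In VEM+BOR 4 were above and 3 below (median 0.05), where 30.1% and 27.9% of all genes were. CBX5, which encodes the heterochromatin protein HP1-alpha, had log2 changes of 0.09 in VEM and -0.24 in VEM+BOR, and the histone methyltransferase gene SUV39H2 had -0.48 and -0.18. HIRA and UBN1, partners in a histone chaperone that deposits H3.3, had -0.01 and -0.03 in VEM and -0.27 and 0.23 in VEM+BOR.

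GLB1 was set beside 24 other lysosomal hydrolase genes. VEM was above the untreated pair for 7 of them and below it for 8 (median log2 change -0.0064), where 30.3% and 27.6% of all genes were. VEM+BOR was above for 12 and below for 3 (median 0.10), where 30.1% and 27.9% of all genes were. The log2 change of GLB1 was thus above the list median in both. GUSB, encoding beta-glucuronidase, had log2 changes of 0.32 in VEM and 0.41 in VEM+BOR. SMPD1, the acid sphingomyelinase gene, had 0.67 and 0.33, and NAGLU had -0.11 and -0.41, none past the threshold. Of 4 tested receptors linked to HMGB1, TLR4 had a log2 change of -0.78 in VEM and 0.15 in VEM+BOR, TLR2 had 0.05 and 0.18, and the low-count genes AGER and CD24 had -0.46 and -0.34, and 0.43 and 1.33. The let-7 axis restrains HMGA2 in many tissues, and LIN28B, which blocks let-7 maturation, was 1137 in VEM, 1161 in VEM+BOR, 1094 and 62.2 in BOR, and 908 and 915 in untreated cells. The second BOR library was low for LIN28B and for DICER1 (66.2), and HMGA2 there was 301, within the untreated span by size factors and below it by totals.

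Senescence is also an arrest of the cell cycle, so cell cycle inhibitors and proliferation genes were read as 2 further lists. Of 6 tested inhibitor genes, 5 exceeded the untreated pair in VEM (30.3% over all genes) and 5 in VEM+BOR (30.1%). The medians of their log2 changes were 0.78 and 0.62, and over all genes 0.0022 and 0.01. CDKN1A, which encodes p21, was 1243 in VEM, 1204 in VEM+BOR, 651 and 9473 in BOR, and 863 and 356 in untreated cells. Its log2 changes of 1.16 in VEM and 1.10 in VEM+BOR did not pass (limma adjusted p = 1 in both). CDKN2A had log2 changes of 0.70 and 0.52, CDKN2D of 1.08 and 1.07, and CDKN2C of 0.86 and 0.73. Of 20 proliferation genes, 4 were above and 10 below in VEM (median -0.17), where 30.3% and 27.6% of all genes were. In VEM+BOR 5 were above and 8 below (median -0.07), where 30.1% and 27.9% were. MKI67, the Ki-67 gene, was 1978 in VEM, 3587 in VEM+BOR, 4150.3 and 729 in BOR, and 7068 and 5410.2 in untreated cells, with a log2 change of -1.65 in VEM (limma adjusted p = 0.336). CDK1 was above both untreated libraries in VEM and VEM+BOR, with 4098 in VEM, 5201 in VEM+BOR, 3685 and 745 in BOR, and 2531 and 2334 in untreated cells, and a log2 change of 1.08 in VEM+BOR (limma adjusted p = 0.791). TOP2A, a topoisomerase of dividing cells, was 5547 in VEM, 6985 in VEM+BOR, 10774 and 289 in BOR, and 12067 and 7727 in untreated cells. It was thus below both untreated libraries in VEM and VEM+BOR, between them in the first BOR library, and lowest in the second BOR library. LMNB1 and HMGB2, which follow the cell cycle in many cells, were 5563 and 12425 in that same library, above the untreated values by size factors and, as given above, below their mean by totals.

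**Figure D4:**
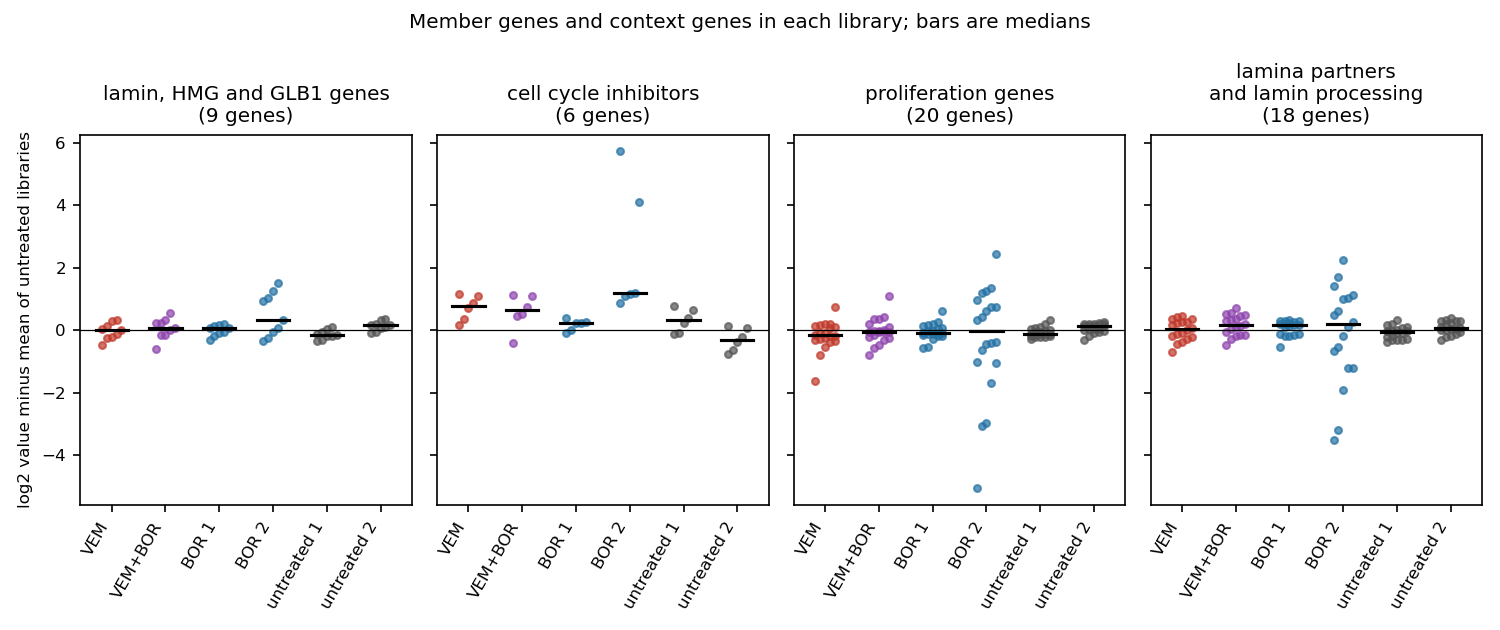
Log2 normalised value minus the mean of the untreated libraries (vertical axis) for each gene of 4 groups in each library (horizontal axes), 1 point per gene and a bar at the median. The lamin, HMG and GLB1 genes stay within about a log2 unit of 0 except LMNA (1.50), GLB1 (1.26) and LMNB2 (1.02) in the second BOR library, and 5 of the 6 cell cycle inhibitors lie above both untreated libraries in VEM, as do 30.3% of all genes.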

How the data were processed

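RNA of 6 SKM-1 libraries was analysed, grouped by the treatment labels. Per the labels' protocols, poly-A RNA was captured on poly-T beads, copied with random hexamer primers and read as 150 bp pairs. No strand-marking step is named, so reads from overlapping genes on opposite strands were not separable. edgeR 3.22.5, DESeq2 1.20.0, featureCounts 1.5.0-p3, HISAT2 2.0.5 and CASAVA are listed in the submitters' processing notes, which do not say what each was used for. No genome build is named in the sources used here. Gene coordinates equal those of GENCODE 29 on GRCh38 for 26704 of 26704 genes.

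The authors deposited 3 tables with a normalised signal per gene and library, which is the read count divided by 1 factor per library. The log2 fold changes and the p-values in the deposited tables are the authors' own and were used only where named. All values (100%) were whole multiples of 1 read within 0.001. Reads per library came to 17252404 for VEM, 18337577 for VEM+BOR, 17694212 and 18507606 for BOR, and 17371022 and 18031385 for untreated. The factor of the VEM column, at 0.991, is near 1, and edgeR 4.0.16 and DESeq2 1.42.0 were not run on VEM. HMGA2 had the fewest reads of the 9, at 223 to 363 per library. Its SE was not the largest: in VEM it was 0.43, against 0.51 for HMGA1.

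The main test was limma (version 3.58.1, R 4.3.3) with a mean-variance trend, two-sided, on log2(value + 1) within 1 table. It covered genes with a mean of at least 10, and a gene passed at a Benjamini-Hochberg adjusted p under 0.05. The pseudocount makes changes of low genes look smaller. Values across tables used median-of-ratios factors over the 23519 genes shared by the 3 tables. RPKM values were computed here. The test was tried on simulated data. A 2-fold change was recovered for 10% of the changed genes in BOR and 14% in the libraries with VEM. It was recovered for a smaller share in VEM and VEM+BOR. A 4-fold change was recovered for 84% in BOR and 80% in the libraries with VEM. A 2-fold change would thus mostly be missed. The simulation used the same spread between replicates, a dispersion of 0.078, in every comparison. Its shares for BOR therefore do not allow for the wider gap between the real BOR libraries, and fewer changes may be recovered there. Counts of replicates differed beyond sampling noise: the chi-square over its degrees of freedom was 40.9 between the untreated libraries and 262 between the BOR libraries.

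The 9 genes, the lists around them and the tests were chosen with earlier results of these data known. All 9 are named, and of each list up to 4 genes with the largest absolute log2 change in VEM+BOR. A gene that this rule takes in is not reported here. A list is described by counts and its median, with no test. Alternatives were pseudocounts of 0.5 and 5, other filters, scaling to library totals, 1 fit of all 6 libraries, edgeR, DESeq2, each replicate left out and, chosen after seeing the data, HMGB1 summed with its pseudogenes.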

Additional observations from a re-analysis of the deposited data

How the results depend on the processing

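The count of genes past the threshold over all genes moved with the settings. For VEM (7 genes) it was 0 with no filter on low values, 42 with library totals, 0 with all 6 libraries in 1 fit, and 0 to 17 in that fit without 1 replicate, the 17 without the first BOR library. For VEM+BOR (30) it was 0 with no filter, 88 with totals, 0 in the fit of 6, 87 by edgeR, 64 by DESeq2 and 0 to 50 in the fit of 6 without 1 replicate, the 50 without the first BOR library. For BOR (0) it was 35 by DESeq2 and 0 to 4008 without 1 replicate, the 4008 without the first BOR library. For the libraries with VEM (34) it was 2 with no filter, 5 with a mean of at least 50, 0 with totals, 0 in the fit of 6, 777 without the first untreated library and 153 without the second.

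None of the 9 genes passed in VEM, VEM+BOR or the libraries with VEM under any setting run. Of their 418 log2 changes under other settings, 382 kept their sign and 36 changed it, 9 of those in fits with no test, and 2 passed (LMNA at 1.50 and GLB1 at 1.26 in BOR, without the first BOR library). The cause of these changes was not tested. Apart from left-out replicates, sign changed for HMGA2 in VEM (0.049, totals), HMGB1 in VEM+BOR (0.0014, fit of 6, also there without either BOR library), HMGB2 in BOR (-0.070, totals) and LMNB1 in BOR (-0.23 by totals, -0.019 by edgeR). Over left-out replicates the ranges that crossed 0 in VEM were -0.31 to 0.033 for HMGA1, -0.19 to 0.17 for HMGA2, -0.57 to 0.14 for HMGB1, -0.58 to 0.055 for HMGB3 and -0.16 to 0.22 for LMNB2. In the fit of 6 the reversed VEM values were 0.032 for HMGA1, 0.17 for HMGA2, 0.14 for HMGB1 and 0.054 for HMGB3 without the second untreated library, and -0.15 for LMNB2 without the first. In VEM+BOR they were -0.32 to 0.022 for HMGA1, -0.11 to 0.26 for HMGA2, -0.37 to 0.35 for HMGB1 and -0.49 to 0.15 for HMGB3, with HMGA2 at -0.092 in the fit of 6 without the first untreated library. In BOR they were -0.31 to 1.50 for LMNA, -0.065 to 0.95 for HMGA1, -0.25 to 0.12 for HMGA2, -0.50 to 0.22 for HMGB1 and -0.53 to 0.11 for HMGB3. For the libraries with VEM they were -0.30 to 0.027 for HMGA1, -0.14 to 0.21 for HMGA2, -0.45 to 0.24 for HMGB1, -0.52 to 0.10 for HMGB3 and -0.047 to 0.32 for LMNB2. LMNA kept its sign in VEM (-0.50 to -0.41) and VEM+BOR (-0.65 to -0.56) over all settings, as did LMNB1 (0.061 to 0.19 and 0.16 to 0.29). With its pseudogenes HMGB1 was at -0.22 in VEM, -0.01 in VEM+BOR, -0.10 in BOR and -0.11 in the libraries with VEM.

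No paired analysis was possible because the labels give no replicate numbers, so numbers here follow accession order. Within 1 table, leaving out an untreated library from VEM or VEM+BOR leaves no residual degrees of freedom, so those are values with no test. With 1 library of VEM and 1 of VEM+BOR the 95% intervals are wide, 0.601-fold to 1.98-fold for LMNB1 in VEM.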
